A study of Xenopus laevis with 20 samples.

Results

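The 100 rows described here are those of a Xenopus laevis array table in which adding Dkk1 to Gata4-GR moved the signal most. For each row the normalized log2 level, defined below, of the Gata4-GR caps was subtracted from that of the Gata4-GR+Dkk1 caps with the same replicate number. The median of the 4 differences was taken. The 50 rows with the highest median form the high set and the 50 rows with the lowest median form the low set, out of 15491 rows not listed as array controls. Both the 4 Gata4-GR+Dkk1 arrays and the 4 Gata4-GR arrays chose the rows, so the differences between these 2 groups are given as a description and carry no test. The other 12 arrays, 4 each of Dkk1, Gata5-GR and uninjected caps, played no part in the choice beyond the common normalization and give the differences that are tested. The spread in these tests was estimated over all 20 arrays, those that chose the rows included. The standard errors (SE) and p-values are thus not fully independent of the choice.

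The samples were animal caps, pieces of blastula ectoderm that can be turned toward mesoderm or endoderm, in 5 groups of 4 arrays. The caps were uninjected, or came from embryos injected at the 1-cell stage with 10 ng of the mRNA for Gata4-GR, Gata5-GR or Dkk1, or with 10 ng each of Gata4-GR and Dkk1. All caps, the uninjected ones included, were cut at stage 9 and spent 2.5 hours in cycloheximide, which blocks protein synthesis, with dexamethasone, which switches on proteins fused to the glucocorticoid receptor (GR). Dkk1 was not fused to the receptor, so dexamethasone did not time its action. Differences with Dkk1 may thus be older than the 2.5 hours and need not be immediate. No group received a control mRNA, and the labels leave unsaid if each replicate was a batch of embryos of its own. A p-value here therefore measures the spread among these arrays, which may be technical in part.

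Dkk1 is a secreted protein that binds the LRP co-receptors of Wnt ligands and so lowers signalling through beta-catenin. Gata4 and Gata5 are DNA-binding proteins of the zinc-finger class that act in the endoderm and in heart mesoderm of vertebrate embryos. In heart-forming tissue of the frog, canonical Wnt signalling is known as a brake that Dkk1 can release.

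The deposited signals ran from 0.1 to 10929, and array medians ran from 59.1 to 101. The log2 level used throughout is log2(signal + 16) after quantile normalization, so a difference between dim rows is understated. Genes could not be named from the table's probe identifiers. Over 1017 pairs of rows listed as the L and S copies of 1 gene, which often share expression in this species, the log2 levels correlated at -0.012 and the profiles over the 20 arrays at a mean of -0.0055. Rows are therefore given by their position in the table, counted from 1, and no gene name, pathway list or probe sequence is attached to them. Nor could the caps be checked against marker genes. Array controls were left out by the same identifiers, and whether control signals remain among the rows used was not tested. Gata4-GR replicate 1 stood apart from the rest, with a mean correlation of 0.959 with the other arrays, against 0.972 to 0.980 for the other 19. Its deviations followed those of the other number 1 arrays at correlations of 0.0599 to 0.135, whereas Gata4-GR replicate 2 followed its own number at 0.384 to 0.492.

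Within the contrast that chose them, the high rows differed by a median of 0.56 on the log2 scale, with group differences from 0.29 to 3.73. The low rows differed by a median of -0.52, with group differences from -1.27 to -0.29. Differences above 1 on the log2 scale were reached by 3 high rows and by 1 low row. In the high set 26 of 50 rows were higher in all 4 pairs, and in 11 rows all 4 Gata4-GR+Dkk1 arrays lay above all 4 Gata4-GR arrays. In the low set 22 of 50 rows were lower in all 4 pairs, and 7 rows had separate groups. Over all rows 0.704% were separate upward, 0.723% separate downward, 6.47% higher in all 4 pairs and 6.84% lower in all 4 pairs. A limma fit called 1 row in this contrast, 0.00646% of all rows, and nothing is read from these shares because the same arrays made the choice.

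The edge of each set is not a step in the data. The last high row, row 4158, had a median difference of 0.513 and the first row left out, row 3672, had 0.508. On the other side row 6211, the last low row, had -0.504, and row 2178, the first left out, had -0.498. Row 3672 was dim, with Gata4-GR signals of 7.4, 2.9, 2 and 2.6 and Gata4-GR+Dkk1 signals of 7.5, 11.6, 10.8 and 7.6.

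**Figure D1:**
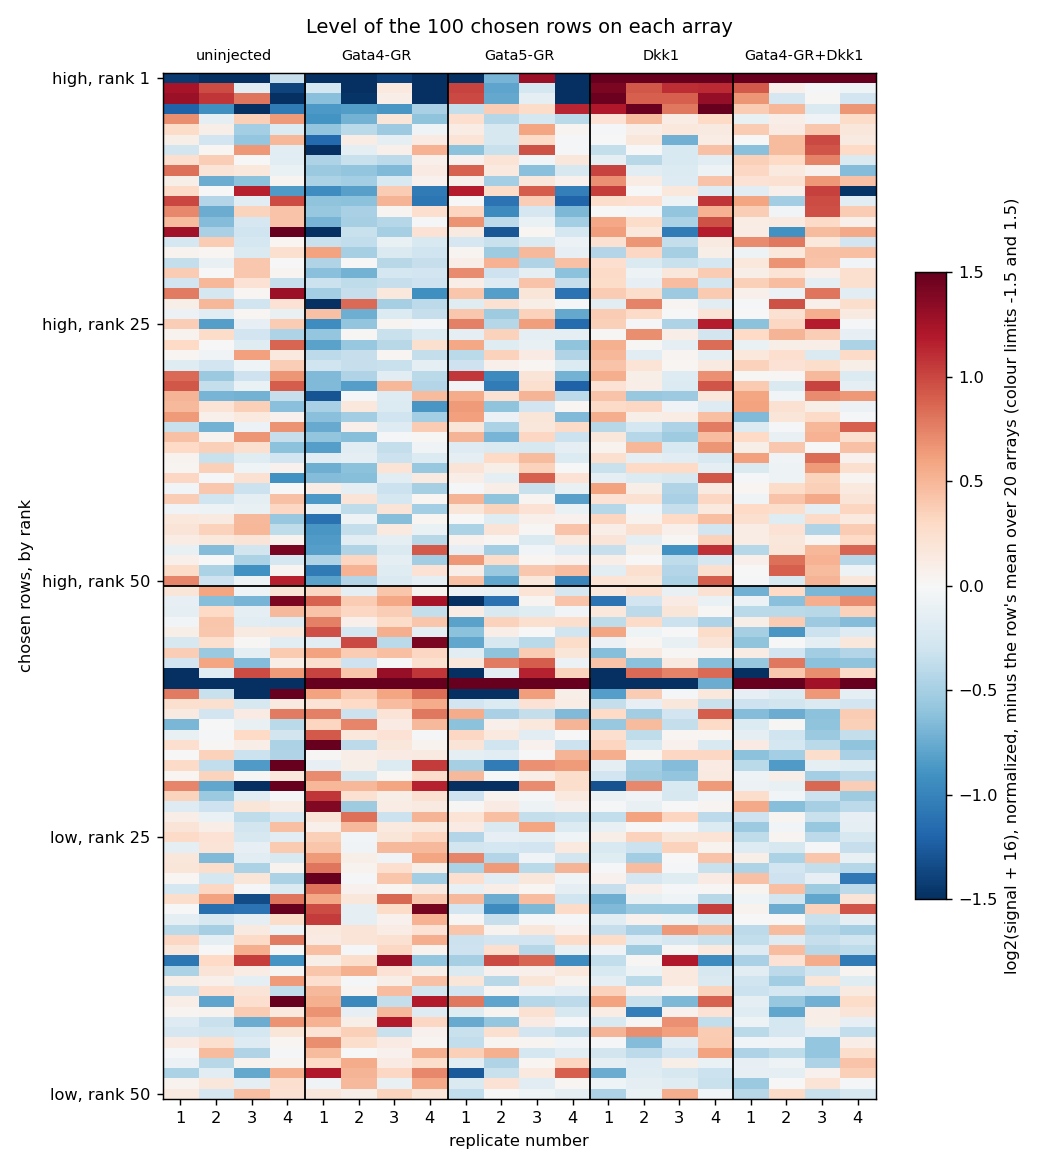
Heat map of the 100 chosen rows (vertical, by rank within each set) on the 20 arrays (horizontal, 4 replicates in each of 5 groups). Colour is the normalized log2 level minus the row's mean over 20 arrays, limited to -1.5 and 1.5. The Gata4-GR columns are mostly blue in the high set and mostly red in the low set, and row 2234, the top line, is red on all 8 arrays that received Dkk1.

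Read across all 5 groups, Gata4-GR was the extreme group in most chosen rows. Gata4-GR had the lowest mean of the 5 groups in 41 of 50 high rows, against 27.9% of all rows, and the highest mean in 38 of 50 low rows, against 27.3% of all rows. Gata4-GR+Dkk1 had the highest mean in 25 of 50 high rows (16% of all rows) and the lowest in 33 of 50 low rows (16.7% of all rows). These counts rest on the arrays that chose the rows and are a description.

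Averaged over the 50 high rows, the level relative to each row's mean was 0.030 ± 0.164 (SD, n = 4) in uninjected caps, -0.39 ± 0.22 in Gata4-GR, -0.076 ± 0.292 in Gata5-GR, 0.20 ± 0.22 in Dkk1 and 0.24 ± 0.13 in Gata4-GR+Dkk1. Averaged over the 50 low rows it was -0.088 ± 0.210, 0.38 ± 0.17, -0.038 ± 0.166, -0.093 ± 0.130 and -0.156 ± 0.060 in the same order. The 4 Gata4-GR arrays ran from -0.69 to -0.19 in the high set and from 0.19 to 0.59 in the low set, with replicate 1 the farthest from 0 in both. In the low set the Dkk1 arrays ran from -0.25 to 0.05 and the uninjected arrays from -0.27 to 0.21, and the ranges overlapped. In the high set the Dkk1 arrays ran from -0.10 to 0.41 and overlapped the uninjected arrays, which ran from -0.12 to 0.25. Single rows can move these means more than they move a median over the same rows. The medians in the low set ran from -0.14 to 0.14 on the uninjected arrays and from -0.15 to 0.04 on the Dkk1 arrays. In the high set they ran from -0.09 to 0.26 and from -0.20 to 0.33.

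**Figure D2:**
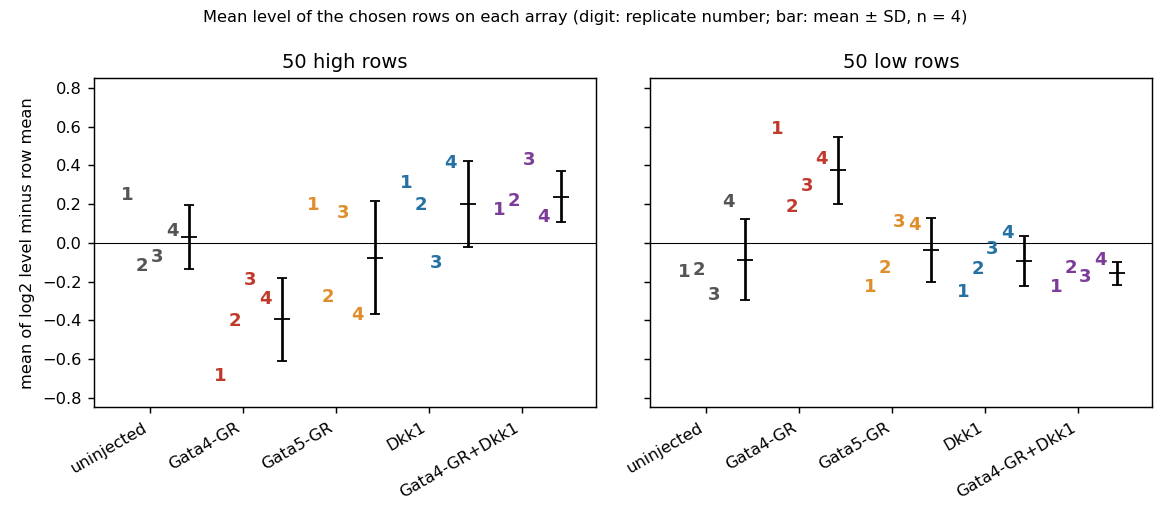
Mean over the 50 high rows (left) and the 50 low rows (right) of the log2 level minus the row's own mean, for each array; each digit is 1 array, written as its replicate number, and the bars show the group mean ± SD, n = 4. The Gata4-GR group has the lowest mean in the high set. Its 4 arrays lie at -0.69 to -0.19 and overlap the Gata5-GR arrays, which reach down to -0.37. The Dkk1 and uninjected arrays overlap in both sets.

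Against uninjected caps, a comparison that shares the 4 Gata4-GR arrays with the choice, Gata4-GR was lower in 46 of 50 high rows, with a median difference of -0.38. It was higher in 46 of 50 low rows, with a median of 0.32. Against Dkk1 caps, which shares the Gata4-GR+Dkk1 arrays, Gata4-GR+Dkk1 was higher in 30 of 50 high rows, with a median of 0.056, and lower in 38 of 50 low rows, with a median of -0.13. The group means over all rows were lower in 50.3% and higher in 49.7% for the first of these comparisons, and higher in 49.1% and lower in 50.9% for the second. The choice itself favours the directions counted here, so the shares over all rows are not a matched background. These counts are a description and carry no test.

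On the arrays that had no part in the choice, 2 high rows rose with Dkk1 and the rest of both sets were divided in sign. Rows 2234 and 15572 were higher in Dkk1 caps than in uninjected caps at an adjusted p under 0.05 by limma (moderated test, 1 mean per group over 20 arrays, Benjamini-Hochberg over 15491 rows). They were also the only rows of the whole table called in this comparison, 0.0129% of all rows, so the called share of the high set was 2 of 50. No low row was called in either direction. The division in sign holds for rows chosen after quantile normalization. When the rows were re-chosen under median centring or with no normalization between arrays, 41 and 43 of 50 high rows lay above the median of all rows for Dkk1 against uninjected caps, where 27 of 50 did here. Of the low rows 27 and 32 of 50 lay below it, where 29 did here. The array with Dkk1 had the lower median signal in every same-numbered pair of both contrasts. In replicates 1 to 4 it was 59.1, 69.6, 74.7 and 60.7 in Dkk1 and 95.1, 72.4, 84.5 and 100.2 in uninjected caps. It was 78.6, 65.6, 62.8 and 83.5 in Gata4-GR+Dkk1 and 85.9, 73.2, 101 and 98.5 in Gata4-GR. Whether these lower medians account for the 41 and 43 rows was not tested, and the counts are not read as a Dkk1 response. At an unadjusted limma p under 0.05 there were 3 high rows above (1.3% of all rows) and 0 below, and 2 low rows above and 2 below (1.27% of all rows). That fit leaves out the pairing by replicate number, and passed 202 of all 15491 rows above and 197 below. With the replicate number as a block, the limma fit called 1 low row as well, row 5066, which was higher and so opposite to its set, and called 0.0194% of all rows. At an unadjusted p under 0.05 the blocked fit gave 4 high rows above and 0 below, and 2 low rows above and 2 below. Over all 15491 rows it gave 362 above and 394 below.

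By sign alone, 27 of 50 high rows had a higher mean in Dkk1 caps than in uninjected caps, where 50.9% of all rows did. The median difference was 0.033 for the high rows and 0.0029 for all rows. In the low set 29 of 50 rows had a lower mean, where 49.1% of all rows did, and the median difference was -0.052. Leaving out 1 array gave 24 to 35 high rows higher, with medians from -0.016 to 0.14. The high median was below 0 without Dkk1 replicate 4 (-0.016) and just below 0 without Dkk1 replicate 1, and was highest without Dkk1 replicate 3 (0.14). The low median ran from -0.13 without uninjected replicate 3 to -0.0022 without uninjected replicate 4. Rows higher in all 4 same-numbered pairs numbered 4 in the high set, against 7.08% of all rows, and rows lower in all 4 pairs numbered 4 in the low set, against 7.33%. The medians of the high rows in the single pairs 1 to 4 were -0.088, 0.161, -0.184 and 0.0995, and those of the low rows were -0.062, -0.105, 0.126 and -0.104. Neither set kept its sign over the 4 pairs. The counts also moved with the scaling: under median centring 17 of 50 low rows were lower, and with no normalization between arrays, which shifted the median of all rows by -0.304, 10 of 50 high rows were higher. Relative to the median of all rows under the same scaling, 22 of 50 low rows lay below it and 29 of 50 high rows above it in both cases. The Dkk1 and uninjected arrays were separate, with Dkk1 above, in 2 high rows (0.749% of all rows), the 2 called ones, and also in 2 low rows, against the direction of their set. With Dkk1 below they were separate in 0 low rows (0.826% of all rows).

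**Figure D3:**
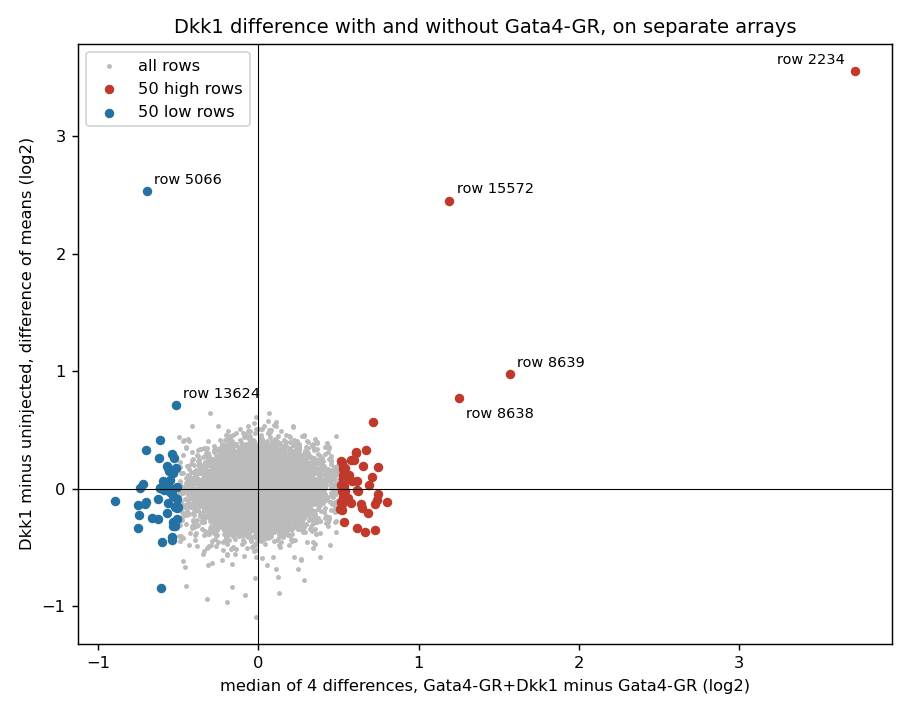
Each point is 1 row; the horizontal axis is the median of the 4 differences that chose the rows and the vertical axis the difference of Dkk1 and uninjected means, both on the log2 scale and on separate arrays. Rows 2234 and 15572 of the high set stand high on the vertical axis, and so does row 5066 of the low set, against the direction of its set. The other red and blue points spread to both sides of 0, with row 13624 of the low set above it.

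Across the 50 high rows, the difference that chose them and the Dkk1 difference had a Pearson correlation of 0.86 and a Spearman correlation of 0.19, and row 2234 lay at the far end of both axes. Across the 50 low rows the correlations were -0.091 and -0.041, and across all 15491 rows 0.11 and 0.069. Rows are not independent replicates, and these are descriptions.

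Row 2234 ranked 1st in the high set and had its highest signals in the 2 groups that received Dkk1. Its signals in Dkk1 replicates 1 to 4 were 458.5, 633.8, 645.4 and 483.7, and in Gata4-GR+Dkk1 466.2, 556.9, 481.7 and 612.3. In uninjected caps they were 49.1, 25.6, 18.8 and 135.2, in Gata4-GR 26.5, 22.4, 54.3 and 28, and in Gata5-GR 23.7, 83.8, 373.6 and 22.7. The 8 arrays with Dkk1 all lay above the 12 without it, and Gata5-GR replicate 3 came nearest. The log2 level was 9.37 ± 0.10 (SD, n = 4) in Dkk1 and 5.82 ± 0.79 in uninjected caps, a difference of 3.55 (SE 0.49, limma adjusted p = 0.00572, higher in 4 of 4 pairs). Against Gata5-GR caps the Dkk1 level was 2.93 higher (SE 0.49, limma adjusted p = 0.0385), a call lost when any 1 Dkk1 replicate or any of Gata5-GR replicates 1, 2 and 4 was left out. That call was also lost with 1 in place of 16 added to the signal, under median centring, with no normalization, with the compared groups alone, with array weights and at a threshold of 0.01. Gata5-GR and uninjected caps differed by 0.62 (limma adjusted p = 1). The 2 Dkk1 groups differed by -0.18 in their means, Gata4-GR+Dkk1 being the lower. Apart from Gata5-GR replicate 3, at 373.6, the row's high signals coincide with the injected Dkk1 mRNA. Whether the row reads that mRNA itself was not tested.

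Row 15572, ranked 4th in the high set, was higher with Dkk1 and also with Gata5-GR. Its signals in uninjected replicates 1 to 4 were 12.6, 16.1, 5.5 and 17.1, in Dkk1 97.2, 142.9, 89.6 and 132.2, and in Gata5-GR 28.4, 68.8, 63.4 and 130.7. In Gata4-GR they were 18, 18.1, 22.7 and 35.9, and in Gata4-GR+Dkk1 66.3, 60.7, 31.6 and 88.8. Every injected array, Gata4-GR included, had a deposited signal above every uninjected array, though the lowest Gata4-GR signal, 18, was close to 17.1. No group received a control mRNA, and the part of injection itself in the differences from uninjected caps was not tested. No Dkk1 array overlapped the uninjected or Gata4-GR arrays, while Dkk1 and Gata5-GR arrays overlapped. Dkk1 exceeded uninjected caps by 2.45 (SE 0.25, limma adjusted p = 0.000129, higher in 4 of 4 pairs). Gata5-GR exceeded uninjected caps, on the same uninjected arrays, by 1.55 (limma adjusted p = 0.0212), a call that was lost when any of Gata5-GR replicates 2, 3 and 4 or uninjected replicates 1, 3 and 4 was left out. It was also lost with 64 in place of 16 added to the signal, with no normalization, with the compared groups alone and at a threshold of 0.01. Dkk1 exceeded Gata5-GR by 0.90 (SE 0.25, limma adjusted p = 1). Gata4-GR+Dkk1 lay 0.93 below Dkk1 alone in this row, a description.

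**Figure D4:**
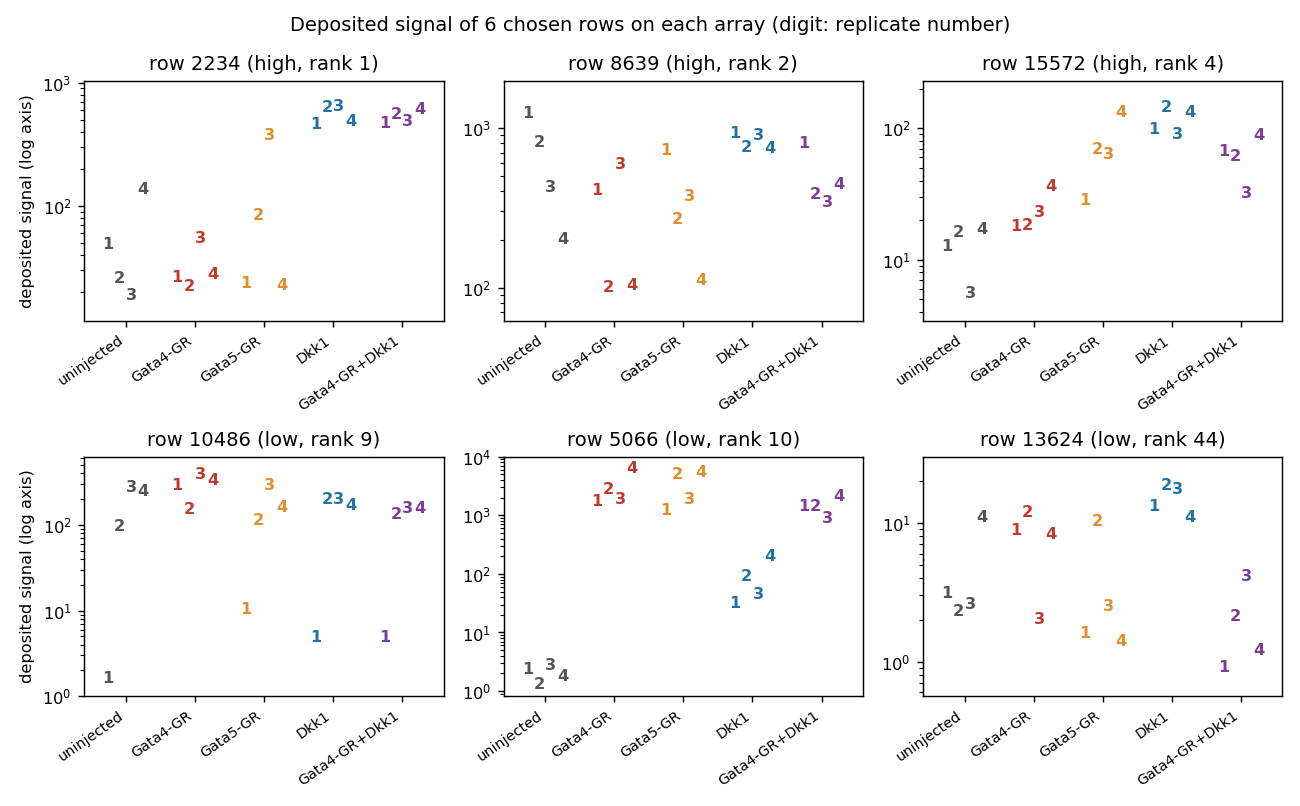
Deposited signal of 6 chosen rows on each of the 20 arrays, on log axes whose ranges differ between panels; each digit is 1 array, written as its replicate number. Row 2234 is high in both Dkk1 groups, row 5066 is high in every injected Gata group and lowest in uninjected caps, and row 10486 is low on replicate 1 of every group but Gata4-GR.

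Rows 8639 and 8638, ranked 2nd and 3rd, are neighbours in the table and moved together on the 12 arrays not used in the choice, with a correlation of 0.962. The signals of row 8639 in uninjected replicates 1 to 4 were 1227, 806.3, 422.5 and 199.4, and in Dkk1 920, 751, 899.2 and 746.5. In Gata4-GR they were 408.4, 99.6, 588.9 and 103.2, in Gata5-GR 722.3, 265.3, 372.4 and 110.5, and in Gata4-GR+Dkk1 797.9, 382.3, 340.2 and 439.2. The Dkk1 arrays were close to each other and the uninjected arrays were spread widely enough to lie on both sides of them. Dkk1 exceeded uninjected caps by 0.98 (SE 0.60) in row 8639 (limma adjusted p = 1, higher in 3 of 4 pairs) and by 0.77 (SE 0.63) in row 8638. Uninjected replicate 4 was the lowest of its group in both rows, and without it the differences were 0.46 and 0.084. Against Gata5-GR the Dkk1 level was 1.62 higher in row 8639 and 1.75 higher in row 8638, in 4 of 4 pairs each, and neither passed the limma threshold (adjusted p = 1 in both).

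Of the next 6 high rows, rows 2929, 14593, 1546, 4978, 10559 and 13420, none passed the threshold between Dkk1 and uninjected caps (limma adjusted p = 1 in each). Their Dkk1 differences from uninjected caps ran from -0.35 to 0.18, and 5 of the 6 were below 0, against the direction in which they were chosen; rows 1546 and 13420 turned to just above 0 under median centring. Row 10559 lay farthest against it, with Dkk1 signals of 5.2, 2.1, 4.4 and 5 and uninjected signals of 14.6, 14.7, 8.7 and 6.8. Its Dkk1 arrays were all below its Gata5-GR arrays too, at 8.6, 11.9, 8 and 11.8. All of these signals were under 16, the value added before taking logs.

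Row 2427, ranked 11th, was the third high row with an unadjusted limma p under 0.05 in the fit without the block and is named after its values were seen. Its signals were 19.7, 2.5, 4.4 and 19.9 in uninjected caps and 26, 16.7, 11 and 21.2 in Dkk1 caps. The groups overlapped, and Dkk1 was higher in 4 of 4 pairs by a mean of 0.57 (SE 0.22, limma adjusted p = 1). Its signals in Gata4-GR+Dkk1 were 20.5, 16.9, 27.6 and 27.9, and overlapped those of Dkk1 alone.

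The low set held no row that fell with Dkk1 at an adjusted p under 0.05, and the 2 low rows with separate Dkk1 and uninjected arrays were both higher with Dkk1, as were 0.749% of all rows. Row 5066, ranked 10th, had signals of 2.3, 1.3, 2.7 and 1.8 in uninjected caps and 30.8, 91.4, 45 and 198 in Dkk1 caps. It reached 1709.8, 2800.2, 1863.9 and 6271.5 in Gata4-GR, 1223.2, 4912.1, 1897.5 and 5420.5 in Gata5-GR, and 1430.2, 1416.9, 868.4 and 2124 in Gata4-GR+Dkk1. Dkk1 arrays thus lay between the uninjected arrays and every array that received a Gata fusion, with no overlap on either side. Whether the row reads an injected mRNA was not tested.

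Gata5-GR exceeded uninjected caps in row 5066 by 7.30 on the log2 scale (limma adjusted p = 4e-08), the widest difference of any row in that comparison. Dkk1 lay 4.77 below Gata5-GR (limma adjusted p = 5.86e-05). Dkk1 exceeded uninjected caps by 2.53 (SE 0.47) and missed the threshold (limma adjusted p = 0.167, higher in 4 of 4 pairs), but passed it with the replicate block (limma adjusted p = 0.00141) and with 1 in place of 16 added to the signal (adjusted p = 0.000391). The uninjected signals lie far below 16, so the size of this difference follows the added constant, and it was 4.91 with the constant of 1. The 4 differences that put the row in the low set were 0.00, -0.84, -0.55 and -1.42 for numbers 1 to 4, so the difference in number 1 was close to 0.

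Row 13624, ranked 44th, was dim in every group. Its signals were 3.1, 2.3, 2.6 and 11 in uninjected caps, 13.1, 18.7, 17.4 and 11 in Dkk1 caps, 1.6, 10.3, 2.5 and 1.4 in Gata5-GR, 8.8, 11.8, 2 and 8.3 in Gata4-GR, and 0.9, 2.1, 4.1 and 1.2 in Gata4-GR+Dkk1. The deposited signals of uninjected replicate 4 and Dkk1 replicate 4 were equal, at 11, and the groups separated only after normalization. Dkk1 exceeded uninjected caps by 0.71 (SE 0.16, limma adjusted p = 0.93), and exceeded Gata5-GR by 0.74 (limma adjusted p = 0.304). Dkk1 alone gave the highest mean of the 5 groups and Gata4-GR+Dkk1 the lowest.

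Of the 9 other low rows among the first 10 by rank, 8 were dim or moderate and overlapped between Dkk1 and uninjected caps. Rows 4013, 8685, 9399, 8115, 13024, 2366, 3483 and 7449 had Dkk1 differences from uninjected caps of -0.33 to 0.04 (limma adjusted p = 1 in each). Row 4013, ranked 1st, had signals of 5, 21.8, 5.1 and 5.4 in Gata4-GR+Dkk1, of 17.6, 22.8, 15.5 and 20.2 in Dkk1 and of 27.5, 33.3, 18.4 and 30.8 in uninjected caps. Gata4-GR+Dkk1 replicates 1, 3 and 4 were the 3 lowest arrays of the 20, and all others lay at 13.9 or above. Row 8685 was the brightest of these rows, with signals from 15.7 to 313.7 over the 20 arrays, and its Dkk1 and uninjected arrays overlapped.

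Row 10486, ranked 9th, divided by replicate number and not by group. Replicate 1 had a signal of 1.6 in uninjected caps, 10.4 in Gata5-GR, 4.9 in Dkk1 and 4.8 in Gata4-GR+Dkk1, but 291.1 in Gata4-GR. Replicates 2 to 4 lay between 94.7 and 391 in all 5 groups. On the 12 arrays not used in the choice 95.6% of its variance lay between replicate numbers and 0.884% between groups. Its 4 differences in the contrast that chose it were -3.67, 0.00, -0.61 and -0.78. The first of them rests on Gata4-GR replicate 1, the array that stood apart from the others of its number. The median that ranked the row lies between -0.61 and -0.78, so the size of the first difference did not set it.

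Both low rows with an unadjusted p under 0.05 in the direction of their set were dim, and both are named after their values were seen. Row 4103 had signals of 11, 15, 10.1 and 14.5 in uninjected caps and 3.9, 1.3, 0.7 and 9.8 in Dkk1, a difference of -0.45 (limma adjusted p = 1). Row 1336 had 11.7, 3.1, 10.5 and 26.3 in uninjected caps and 8.2, 2.5, 1.7 and 0.7 in Dkk1, a difference of -0.44 (limma adjusted p = 1). Dkk1 was lower in 4 of 4 pairs in each, with no deposited signal above 26.3 in either group.

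The comparison of Dkk1 with Gata5-GR sets 2 injected groups side by side, and it shares its Dkk1 arrays with the comparison above. Of the high rows, 33 of 50 had a higher mean in Dkk1, against 49.2% of all rows, with a median difference of 0.19. The medians in pairs 1 to 4 were -0.035, 0.376, -0.349 and 0.474, so replicate numbers 2 and 4 carried the sign and number 3 went the other way. Rows higher in all 4 pairs numbered 8 in the high set, against 6.93% of all rows, and rows lower in all 4 pairs numbered 2 in the low set, against 7.98%. All 4 Dkk1 arrays were above all 4 Gata5-GR arrays in 1 high and 3 low rows (1.03% of all rows), and below them in 1 high and 1 low row (1.1% of all rows). At an adjusted p under 0.05 limma called 1 high row higher, row 2234 (0.00646% of all rows), and 1 low row lower, row 5066 (0.0258% of all rows). Of the low rows 28 of 50 had a lower mean, against 50.8% of all rows, with a median of -0.034. Relative to the median of all rows under the same scaling, 16 of 50 low rows lay below it under median centring and with no normalization, and 26 with trimmed mean scaling, while 35, 35 and 33 of 50 high rows lay above it. The low median was above 0 without Dkk1 replicates 1 (0.0013) and 2 (0.021) and without Gata5-GR replicates 3 (0.0097) and 4 (0.017). At an unadjusted limma p under 0.05 there were 6 high rows above and 0 below, and 2 low rows above and 2 below, against 1.28% and 1.37% of all rows. With the replicate block there were 9 high rows above and 0 below, and 2 low rows above and 2 below. Of all 15491 rows the blocked fit then passed 358 above and 435 below.

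Gata5-GR against uninjected caps holds no Dkk1 and shares the uninjected arrays with the first comparison. It also shares the Gata5-GR arrays with the comparison of Dkk1 and Gata5-GR, so the counts of these comparisons are not separate results. The high rows were higher in 17 of 50 and lower in 33 of 50, against 52.4% and 47.6% of all rows, with a median of -0.087 and pair medians of -0.017, -0.193, 0.198 and -0.304. The low rows were higher in 21 and lower in 29, with a median of -0.062, which became 0.037 without uninjected replicate 4. The high median was -0.033 without Gata5-GR replicate 2. At an adjusted p under 0.05 limma called 1 high row, row 15572, and 1 low row, row 5066, both higher, and 0.0323% of all rows. Separate groups with Gata5-GR above were found in these 2 rows (0.897% of all rows), and in 0 rows of either set with Gata5-GR below (0.762% of all rows). Rows higher in all 4 pairs numbered 2 in the high and 3 in the low set (6.96% of all rows), and rows lower in all 4 pairs 4 in each (5.62% of all rows). At an unadjusted limma p under 0.05 there were 1 high row above and 3 below, and 1 low row on each side, against 1.28% and 1.42% of all rows. With the replicate block there were 2 high rows above and 6 below, and 1 low row on each side. Of all 15491 rows the blocked fit then passed 333 above and 361 below. Beside these, the high rows had a median of 0.033 for Dkk1 against uninjected caps.

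The choice was also repeated from 3 pairs at a time, and the chosen rows were read in the 4th pair. These readings come from the same Gata4-GR and Gata4-GR+Dkk1 arrays, and the repeated choices share arrays with each other. They are a description and carry no test. The 50 high rows chosen without pair 1, 2, 3 or 4 were higher in that pair in 29, 32, 29 and 34 of 50, against 49.5%, 50.7%, 50.5% and 48.8% of all rows. Their median differences in the pair left out were 0.11, 0.10, 0.069 and 0.12. The 50 low rows were lower in 29, 24, 31 and 27 of 50, against 50.4%, 49.1%, 49.4% and 51.1% of all rows, with medians of -0.13, 0.041, -0.12 and -0.032. The pairs that did the choosing had medians from 0.30 to 0.81 in the high set and from -0.67 to -0.44 in the low set.

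**Figure D5:**
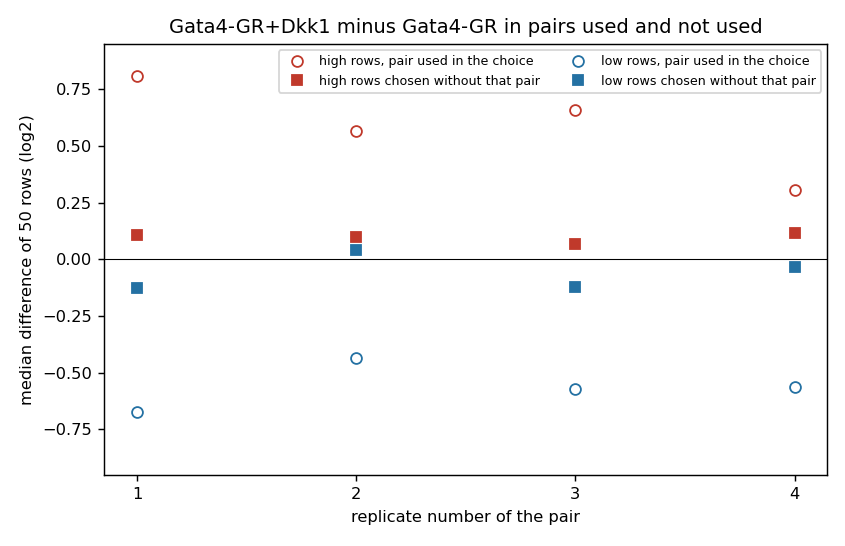
Median Gata4-GR+Dkk1 minus Gata4-GR difference (log2, vertical) of 50 rows in each same-numbered pair (horizontal). Open circles show the chosen rows in pairs that helped to choose them and squares show rows chosen from the other 3 pairs; the circles lie at 0.30 to 0.81 and -0.67 to -0.44, and the squares between -0.13 and 0.12.

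Of the 50 high rows, 20, 25, 21 and 30 were chosen again when pair 1, 2, 3 or 4 was left out, and of the 50 low rows 19, 21, 18 and 16. Without number 1, which removes Gata4-GR replicate 1, 28 of the 50 re-chosen high rows were higher in Dkk1 than in uninjected caps and 22 of the 50 re-chosen low rows were lower. The difference in pair 1 was the largest in size of the 4 in 24 of 50 high rows and 21 of 50 low rows, against 51.1% of all rows. These shares do not measure what pair 1 added to a median of 4, and its part in the choice was not tested.

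The low rows were dimmer than the table as a whole and both sets were more variable. The median log2 level was 6.38 in the high set, 5.01 in the low set and 6.56 over all rows. A median signal under 16 was found in 14 of 50 high rows and 25 of 50 low rows, against 26.7% of all rows. In the 12 arrays not used in the choice the SD within a group had a median of 0.41 in the high set and 0.30 in the low set, against 0.22 over all rows. Differences between replicate numbers took a median of 36.0% of a high row's variance and 31.0% of a low row's, against 48.5% over all rows, and differences between the 3 groups took 13.5%, 11.2% and 9.36%. Such raw shares are positive even without any true difference. The share to be had then was not computed, so no group effect is read from them. Whether level and spread account for the choice of these rows was not tested.

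Some chosen rows repeated each other on the arrays not used in the choice. Of 1225 pairs of high rows 49, or 4%, correlated above 0.8 over the 12 arrays, against 0.444% of all pairs of rows, and of 1225 pairs of low rows 8 did, or 0.653%. These involved 18 high rows and 10 low rows. The chosen rows were more variable than the table as a whole, and pairs of rows of like spread were not compared, so the share over all pairs is not a matched background. Row 4158 was joined to 11 other high rows. Its signals in uninjected replicates 1 to 4 were 555.4, 203.6, 286.3 and 822.6, in Dkk1 240.6, 278.9, 186.4 and 413, and in Gata5-GR 303.8, 165.6, 324.1 and 136.5. Uninjected replicates 1 and 4 were the highest of these and the groups overlapped.

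Row 2988, joined to row 4158 at a correlation of 0.964, had the same order in uninjected caps, with signals of 191.3, 64.5, 96 and 298.5. Rows 3565 and 3566, neighbours in the table, correlated at 0.996. Row 3566 had signals of 437.8, 116, 169 and 457.3 in uninjected caps and of 157.6, 187.8, 159.5 and 295.1 in Dkk1, with replicates 1 and 4 again highest in uninjected caps. In the low set rows 406 and 3307 correlated at 0.978, and row 406 ran from 126.6 to 2661.3 over the 20 arrays with its highest signal in uninjected replicate 4. Among neighbouring rows of the whole table the median correlation was 0.022 and 1.56% of pairs reached 0.8. Whether joined rows measure 1 transcript was not tested because the identifiers could not be used.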

How the data were processed

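The deposited values are linear probe-set intensity values, 1 per row and array, in a table of 15611 rows and 20 arrays, per the file headers and the values; how the probes of a set were combined, and with which program, is not given in these sources. From these, log2(intensity + 16) was taken and quantile normalized over the 15491 rows not listed as controls. Each group had its own mean in a limma fit (version 3.58.1, R 4.3.3) with eBayes. Tests were two-sided, with p-values adjusted by Benjamini-Hochberg over all rows. The arrays' number, 4 in each group, limits the precision.

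The members and lists were chosen with earlier results of these data known. Rows named are the first 10 of each set, rows called in a tested comparison, rows whose Dkk1 and uninjected arrays were separate, and ranks 50 and 51, and a few others where the text says so or where correlated rows are described. Same-numbered arrays deviated from their group means together at correlations of 0.38 to 0.658, apart from number 1 of Gata4-GR+Dkk1 against Gata4-GR, at 0.111. The numbers were therefore taken as pairing the arrays. Gata4-GR replicate 1 correlated with uninjected replicate 2 (0.0803) no less than with uninjected replicate 1 (0.0599), so its pairing rests on its label. The number was used as a block in an alternative fit. The p-values given are from the fit without it, which ignores this pairing, unless the block is named. Alternatives covered the added constant, normalization, dim rows, control rows, the arrays fitted, weights and the threshold.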

Additional observations from a re-analysis of the deposited data

Results flagged for a closer look

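Of 125 groups of 4 normalized log2 levels in the named rows, 15 held an array whose gap to the others was above Dixon's 95% critical value. The gap was judged on those levels, and the values printed for each flag are deposited signals. A rate of 1 in 20 gives 6.25, but it assumes independent rows that were not chosen by their values. The named rows were ranked on the Gata4-GR and Gata4-GR+Dkk1 arrays, and some move together, so no excess is read from this count. Replicate 1 stood apart downward in row 10486, at 4.9 in Dkk1 (others 170.9 to 200.6) and 4.8 in Gata4-GR+Dkk1 (others 133.6 to 156.3). It also did so in row 3483, at 0.9 in Dkk1 (others 9.4 to 12.5), and in row 8115, at 5.4 in Gata5-GR (others 30.9 to 32.4). Replicate 1 stood apart upward in row 13420, at 31 in Dkk1 (others 8.2 to 9), and in row 8639, at 797.9 in Gata4-GR+Dkk1 (others 340.2 to 439.2).

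Replicate 2 stood apart upward in Gata4-GR+Dkk1 in row 4013, at 21.8 (others 5 to 5.4), and in row 7449, at 31.4 (others 4.2 to 5), and in Gata5-GR in row 13624, at 10.3 (others 1.4 to 2.5). Replicate 4 stood apart in 6 groups. It was low in row 8638, at 175.3 in uninjected caps (others 942.9 to 1411.5), and in row 9399, at 4.4 in Gata4-GR (others 14.6 to 20.8). It was high in row 9399, at 16.5 in Gata4-GR+Dkk1 (others 2.4 to 3.1), in row 13420, at 17.3 in Gata4-GR (others 2.2 to 2.8), in row 13624, at 11 in uninjected caps (others 2.3 to 3.1), and in row 15572, at 35.9 in Gata4-GR (others 18 to 22.7). Row 9399 thus had replicate 4 apart in both groups that chose it, low in one and high in the other.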

How the results depend on the processing

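Of 971 values recomputed under the alternatives, 827 were counted as the same and 144 were not. A named row's difference had to keep its direction and its side of the threshold. Counts and set medians had only to stay within a set limit, and a median could change sign within it. The low median for Gata5-GR against uninjected caps did so, from -0.062 to 0.037 without uninjected replicate 4. The cause was not tested unless given. Rows 2234 and 15572 kept their calls for Dkk1 against uninjected caps under every alternative in which they were tested (limma adjusted p 0.00209 to 0.0482 and 1.75e-06 to 0.00512); row 15572 fell out of the upper 50 percent of rows, which left 1 row and 1 high row called. The replicate block changed 1 call of a low row against uninjected caps (row 5066, from 0 to 1 called), as did a constant of 1, and no other count of chosen rows called; same-numbered arrays were paired on the correlations given in the processing.

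Low rows in their set's direction for Dkk1 against uninjected caps numbered 17 under median centring (median 0.088) and 15 of 27 and 7 of 11 among rows above the 25th and 50th percentiles, which test fewer rows. High rows numbered 12 of 23 above the 50th percentile and 10 of 50 with no normalization (median -0.24, low set -0.25). For Dkk1 against Gata5-GR, 5 rows were called. This became 3 with a constant of 64, with rows above the 25th percentile or with the compared groups alone, 2 with no normalization, above the 50th percentile or at an adjusted p under 0.01, 1 under median centring, and 2 to 4 without single replicates. High rows called there fell to 0 with a constant of 1, median centring, no normalization, the compared groups alone, array weights and the lower threshold, and were 0 to 1 without single replicates. High rows higher numbered 17 of 23 above the 50th percentile. Low rows lower numbered 15 of 50 under median centring (median 0.089), 15 of 27 above the 25th percentile and 5 of 11 above the 50th (median 0.072). The low median was -0.11 with no normalization, where the median of all rows was -0.174 and 16 of 50 low rows lay below that, 0.00146 with trimmed mean scaling and -0.067 to 0.021 without single replicates.

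For Gata5-GR against uninjected caps 5 rows were called. This became 3 with a constant of 64, above the 25th percentile, with the compared groups alone or at an adjusted p under 0.01, 2 with no normalization, 1 above the 50th percentile and 3 to 6 without single replicates. High rows called fell to 0 with a constant of 64, no normalization, above the 50th percentile, the compared groups alone and the lower threshold, and were 0 to 1 without single replicates. Low rows lower numbered 17 of 27 and 8 of 11 above the 25th and 50th percentiles, and high rows higher 7 of 23 above the 50th. For Gata4-GR+Dkk1 against Gata4-GR, 1 row was called, and 0 with a constant of 1.

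Re-choosing shared, in the high and low sets, 23 and 24 of 50 rows with the mean of the differences, 14 and 18 with a constant of 1, 28 and 15 with 64, 27 and 28 under median centring, 22 and 18 with no normalization, 23 and 11 above the 50th percentile, 12 and 8 by limma's moderated t with the replicate block, and 25 and 25 at 25 a side by construction. Low rows shared numbered 27 above the 25th percentile, and without 1 pair 20 to 30 high and 16 to 21 low rows were shared. Of high rows re-chosen under median centring 43 were higher with Dkk1 (58.4% of all rows were), and of low rows re-chosen with no normalization 48 were lower (89.5% of all rows were). Relative to the median of all rows, high rows above it numbered 41 under median centring and 43 with no normalization, against 27, and low rows below it 27 and 32, against 29. The arrays with Dkk1 had the lower median signal in each same-numbered pair of both contrasts, and the part of this in these counts was not tested.

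Among named rows, the Dkk1 difference from uninjected caps changed sign under median centring in row 1546 (0.00281), row 2178 (0.12), row 3483 (0.091), row 4013 (0.036), row 7449 (0.10), row 9399 (0.085) and row 13420 (0.039). With no normalization it turned in row 2366 (-0.057) and row 13024 (-0.21), with a constant of 1 in row 2178 (0.044) and row 13024 (-0.0070), and with array weights in row 2178 (0.044) and row 13024 (-0.032). Without single replicates it ranged from -0.52 to 1.18 in row 10486, -0.12 to 0.094 in row 13024, -0.42 to 0.053 in row 13420, -0.21 to 0.16 in row 1546, -0.25 to 0.30 in row 2178, -0.028 to 0.13 in row 2366, -0.32 to 0.045 in row 3483, -0.20 to 0.017 in row 4013, -0.41 to 0.090 in row 4158, -0.25 to 0.10 in row 4978, -0.31 to 0.10 in row 7449 and -0.56 to 0.14 in row 8685. None of these rows was called for Dkk1 against uninjected caps, and dim signals limit what a difference shows in rows under 16.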
